A study of Mus musculus with 8 samples.

Results

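Lif, Il6 and Osm encode cytokines of the interleukin-6 family, and they are described here with 4 of their receptor genes (Lifr, Osmr, Il6ra and Il6st) and 3 signalling genes (Jak1, Jak2 and Stat3). These 10 genes were taken from the 57180 genes of the count and TPM tables by symbol. Lif was selected on its measured difference in these data, a higher level in the RhoA het than in the control library of the same number, so its values in that comparison are a description without a test. The other 9 genes were listed with it as family members. Of the 10, 9 passed the filter on low counts, and Osm did not.

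The libraries came from sorted mouse muscle stem cells, which repair skeletal muscle after injury. There were 4 control libraries, titled WT and numbered 2, 5, 7 and 8. Another 4, titled RhoA het, numbered 5, 6, 7 and 8 and tagged as a RhoA knockdown, came from SC-RhoAfl/+ mice, which carry 1 floxed allele of the small GTPase gene RhoA. The Cre driver, strain and age, and whether each library is a separate mouse, are not given in the sources used here, so the p-values measure the spread between these samples. The design asks how expression differs when RhoA activity is reduced.

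LIF, interleukin-6 and oncostatin M signal through receptor complexes that share the subunit gp130, the product of Il6st. Each ligand also needs a further subunit: the LIF receptor for LIF, the interleukin-6 receptor alpha chain for interleukin-6, and the oncostatin M receptor for oncostatin M. JAK kinases bound to these receptors phosphorylate STAT3, which then enters the nucleus and activates genes that include its own inhibitor Socs3. In skeletal muscle this pathway is known for acting on the proliferation and differentiation of muscle stem cells after injury.

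Libraries held 19138763 to 25606342 assigned fragments. Rhoa, the targeted gene, had 121 to 148 TPM in control and 111 to 125 TPM in RhoA het (means 134.2 ± 10.9 and 116.5 ± 6.23, SD, n = 4 each), so the groups overlapped. TPM is the authors' scaling of counts by gene length and library total, and it is the scale used below to compare genes with each other. CPM, which ignores gene length, is the scale of the tests and uses library sizes corrected by TMM (trimmed mean of M values). All 12 muscle stem cell markers listed, Pax7 among them, were detected in each library, with a summed level of 7936 to 13844 TPM. Fragments on 4 Y-linked genes numbered 14358 in control replicate 2, 14659 in RhoA het replicate 6 and at most 2 elsewhere. These are also the libraries whose number has no partner in the other group. RhoA het replicate 6 stood apart in its content of other cell types: all 10 endothelial markers were highest there (summed level 460 TPM, against 42.3 to 122 TPM in the other 7 libraries), as were 10 of 12 immune markers and all 5 erythroid markers. In such bulk samples a change in the number of cells of a type cannot be told apart from a change in RNA per cell.

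The sequences just upstream of Lif, Il6 and Jak1 are shown first, because Lif and Il6 were the most variable of these genes and Jak1 followed Lif most closely. RefSeq promoters on GRCm38.p6 were given for 9 of the 10 genes (10 start sites), and the 250 bases before each start were searched on both strands. The capitals mark matches to an AP-1 motif (TGANTCA), an NF-kB motif or a cAMP response element (TGACGTCA). The 3 sequences run 5′ to 3′ on the strand of the gene, at chr11:4257318-4257567 (plus strand) for Lif, chr5:30012864-30013113 (plus strand) for Il6 and chr4:101265224-101265473 (minus strand) for Jak1.
Lif: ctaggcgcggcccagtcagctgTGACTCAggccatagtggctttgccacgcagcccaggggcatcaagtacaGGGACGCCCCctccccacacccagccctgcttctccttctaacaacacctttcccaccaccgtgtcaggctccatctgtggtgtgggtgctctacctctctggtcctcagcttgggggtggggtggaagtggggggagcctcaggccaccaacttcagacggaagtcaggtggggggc
Il6: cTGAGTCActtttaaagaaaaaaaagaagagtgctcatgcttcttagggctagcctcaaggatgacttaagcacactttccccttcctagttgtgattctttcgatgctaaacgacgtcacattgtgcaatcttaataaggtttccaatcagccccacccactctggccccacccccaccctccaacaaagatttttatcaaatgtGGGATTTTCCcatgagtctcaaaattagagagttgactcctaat
Jak1: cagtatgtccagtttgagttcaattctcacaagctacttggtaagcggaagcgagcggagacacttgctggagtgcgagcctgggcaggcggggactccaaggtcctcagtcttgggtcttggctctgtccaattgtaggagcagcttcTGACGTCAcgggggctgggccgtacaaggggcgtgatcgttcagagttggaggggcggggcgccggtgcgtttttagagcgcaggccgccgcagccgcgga

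Lif and Il6 each held 1 AP-1 match and 1 NF-kB match in this window. In Lif the AP-1 match TGACTCA lay 228 to 222 bases before the start and the NF-kB match 178 to 169 bases before it. In Il6 the AP-1 match TGAGTCA lay 249 to 243 bases before the start and the NF-kB match 44 to 35 bases before it. Neither motif matched at the other 8 start sites, and Jak1 held the only match to the cAMP response element, 101 to 94 bases before its start. Over all 32851 promoter windows of this length, 6.75% held the AP-1 motif, 7.25% the NF-kB motif and 1.55% the cAMP response element. The STAT motif TTCNNNGAA (7.02% of all windows), its strict form TTCCNGGAA (0.913%, a subset of the former) and the CArG box bound by serum response factor (1.47%) had no match at the 10 start sites. A match describes these letters and is not evidence of binding.

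By position Lif and Osm form a neighbouring pair, as do Lifr and Osmr, while Il6, Il6ra and Il6st lie on chromosomes 5, 3 and 13. In the count table's coordinates (mm39), Lif (ENSMUSG00000034394.15) spans chromosome 11, 4207557 to 4222514, and Osm (ENSMUSG00000058755.4) spans 4186420 to 4191026 on the same chromosome and strand. The gap between them is 16530 bases and holds 1 other annotated gene. Lifr (ENSMUSG00000054263.13; chromosome 15, 7120095 to 7226970) and Osmr (ENSMUSG00000022146.13; chromosome 15, 6843058 to 6904450) lie 215644 bases apart on opposite strands. These neighbours differed widely in level: Lif averaged 47.8 TPM over the 8 libraries and Osm 0.0781 TPM. Counting did not use strand, so fragments lying on exon bases that genes of opposite strands share cannot be told apart by strand. Stat3 shares some such bases with Stat5a, Jak1 with Raver2 and Il6ra with Gm42809. The rest of these genes is not affected by this.

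On the TPM scale the family was unevenly expressed. Stat3 was highest with a mean of 866 TPM over the 8 libraries, above 98.8% of the genes tested, followed by Jak1 at 299.5 TPM, Il6 at 212 TPM and Il6st at 193 TPM. Osmr averaged 70.8 TPM, Lif 47.8 TPM, Lifr 29.7 TPM and Jak2 17.4 TPM. Il6ra, the alpha chain that binds interleukin-6, averaged 1.91 TPM, above only 19.4% of the genes tested. Within single libraries Il6st exceeded Il6ra 59.5-fold to 166-fold (median 122-fold), so the shared subunit was abundant where the ligand-binding chain was scarce. Osmr was above Lifr in 8 of 8 libraries by 1.76-fold to 3.44-fold, Jak1 above Jak2 by 13.6-fold to 19.95-fold, and Il6 above Lif by 2.63-fold to 8.84-fold. Some neighbours in this order overlapped: Il6 ranged from 85.5 to 530.5 TPM, across the whole ranges of Il6st and Jak1, and Lif from 13.0 to 137 TPM, across those of Lifr and Osmr.

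**Figure D1:**
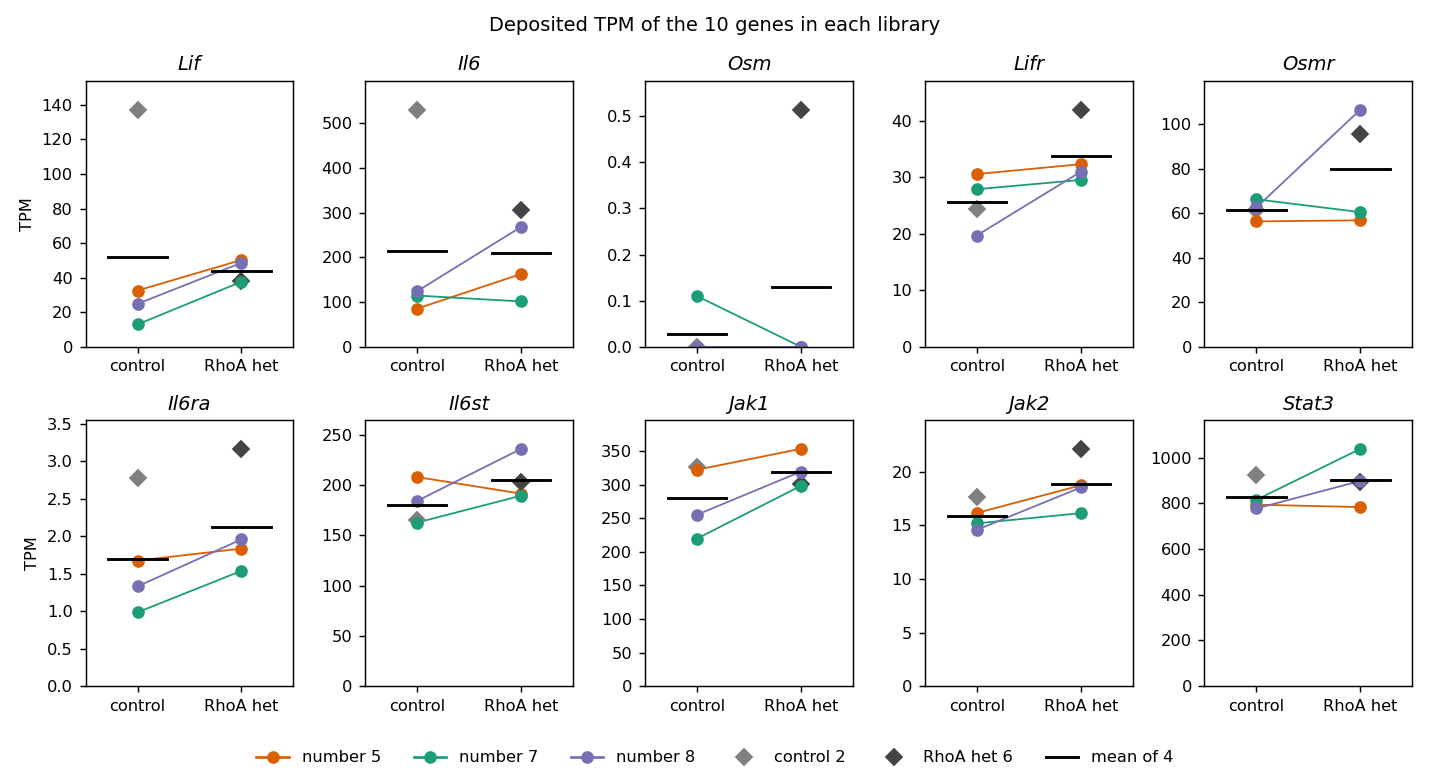
Deposited TPM (vertical axes, linear, from 0) of each of the 10 genes in the 4 control and 4 RhoA het libraries. Circles joined by a line share a replicate number (5, 7 or 8), diamonds are control replicate 2 and RhoA het replicate 6, and black bars are group means. Lif and Il6 are far highest in control replicate 2 (137 and 530.5 TPM), and Osm is at or near 0.

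Lif, which encodes leukaemia inhibitory factor, was at 137, 32.5, 13.0 and 24.9 TPM in control replicates 2, 5, 7 and 8. In RhoA het replicates 5, 6, 7 and 8 it was at 50.3, 38.0, 37.7 and 48.6 TPM. All 4 RhoA het libraries were thus above control replicates 5, 7 and 8 and below control replicate 2, and the groups overlapped only through that library. The means were 51.9 ± 57.5 TPM in control and 43.6 ± 6.73 TPM in RhoA het (SD, n = 4 each). Within the pairs for which Lif was picked, RhoA het was 1.54-fold, 2.91-fold and 1.95-fold higher in TPM for numbers 5, 7 and 8, or 0.67, 1.54 and 0.84 higher in log2 CPM. Of all genes tested, 13.6% were higher in RhoA het in 3 of 3 pairs on this scale, and nothing is read from that for Lif, since it was chosen this way. The libraries that the choice did not use went the other way: RhoA het replicate 6 was at 0.277 times the level of control replicate 2, a log2 CPM difference of -2.10. Accordingly the edgeR log2 fold change of Lif was -0.49 over 8 libraries, 0.90 without control replicate 2 and 0.99 over the 3 pairs with the replicate number as a block. Its sign also turned with the scale, to 0.30 on log2(TPM + 1), where the median of all genes tested was 0.068, and with a term for the libraries with Y-linked reads (0.26).

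Il6, the gene of interleukin-6, was at 530.5, 85.5, 115 and 124 TPM in control replicates 2, 5, 7 and 8. Levels in RhoA het replicates 5, 6, 7 and 8 were 163, 305, 101 and 268 TPM. Control replicate 2 was again the highest library, RhoA het replicate 7 lay within the range of the other controls, and the groups overlapped. The means were 214 ± 212 and 209 ± 93.9 TPM (SD, n = 4 each), and edgeR put the change at -0.24 in log2 (SE 0.66; 95% interval from -1.73 to 1.25; adjusted p 0.9998). The two-sided exact permutation p of log2 CPM was 0.857, where the smallest possible over 70 splits is 0.0286. Within the pairs Il6 was 1.90-fold and 2.16-fold higher in RhoA het for numbers 5 and 8 and 0.884 times as high for number 7. Without control replicate 2 the log2 fold change turned to 0.96 (adjusted p 0.99996 in edgeR), and with the replicate block over numbers 5, 7 and 8 it was 0.58 (SE 0.20, adjusted p 0.788 in edgeR). On log2(TPM + 1) it was 0.26.

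Lif and Il6 were also the most variable of the 9 genes that passed the filter. The SD of log2 CPM over the 8 libraries was 1.06 for Lif and 1.04 for Il6, above 95.1% and 94.8% of the genes tested, against 0.17 for Il6st and 0.62 for Il6ra, the lowest and highest of the others. Several values moved with the high level in control replicate 2. Its TMM factor, 0.852, was the lowest of the 8, which raises its CPM: on that scale it held the highest value of 5 of the 9 genes (Lif, Il6, Il6ra, Jak1 and Stat3), and in TPM of 2 (Lif and Il6). Fibro-adipogenic markers, genes of the connective-tissue progenitors of muscle, summed to 2011 TPM there, against 997 to 1759 TPM in the other controls and 1363 to 2122 TPM in RhoA het, with 10 of 10 markers detected in each library. Their mean log2 CPM there was 4.97, below 5.09 in control replicate 8. Endothelial markers summed to 42.3 TPM there, the lowest of all libraries, and immune markers to 304 TPM, the lowest control. The part of these differences in the Lif and Il6 values was not tested. Genes of the response to tissue dissociation (16 listed, Fos, Egr1 and Atf3 among them) summed to 47632 TPM in control replicate 2 and to 57374 TPM in control replicate 7, where their sum was the highest of all libraries and Lif the lowest. Their mean log2 CPM, which weights the genes equally, was instead highest in control replicate 2 (10.9, against 10.7 in control replicate 7), as were 5 of the 16 genes. The part of the dissociation response in the Lif and Il6 values was not tested.

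Osm, the gene of oncostatin M, was close to undetected. It had 0 fragments in 6 libraries, 2 in control replicate 7 and 8 in RhoA het replicate 6. A count of 0 allows up to 0.134 to 0.158 CPM in these 6 libraries (3 counts of the TMM-scaled total; counting error only). RhoA het replicate 6 was thus the only library above that limit, at 0.380 CPM, and it was also highest for 10 of 12 immune markers. Their summed level was 618 TPM there, within the 231 to 813 TPM of the other RhoA het libraries and the 304 to 829 TPM of control, and 0 of the 12 were at 0 there, against 2 to 5 in each other library. Csf3r, a neutrophil receptor gene, had 13 fragments there and 0 in each of the other 7 libraries. Osm was not tested between the groups.

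The receptor genes varied less than the ligands, and none of them passed the test. Lifr, the receptor chain that LIF uses beside gp130, was at 24.4, 30.6, 27.9 and 19.7 TPM in control replicates 2, 5, 7 and 8. In RhoA het replicates 5, 6, 7 and 8 it was at 32.3, 42.0, 29.5 and 31.0 TPM. In TPM, RhoA het replicate 7 lay below control replicate 5, and the other 3 RhoA het libraries lay above all controls. In CPM, control replicate 2 (101.8 CPM) was above RhoA het replicates 5 (100.2 CPM), 7 (95.7 CPM) and 8 (100.6 CPM). On that scale only RhoA het replicate 6 (147.3 CPM) lay above all controls. The means were 25.7 ± 4.70 and 33.7 ± 5.65 TPM (SD, n = 4 each), with a log2 fold change of 0.33 (SE 0.17, interval -0.065 to 0.72, adjusted p 0.9998 in edgeR; exact permutation p 0.114). Without RhoA het replicate 6, which stood apart in endothelial, immune and erythroid markers, the log2 fold change was 0.16. It was 0.40 without control replicate 2 and 0.31 with a term for libraries with Y-linked reads (unadjusted p 0.0384, adjusted p 0.999 in edgeR). The part of other cell types in the Lifr values was not tested.

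Osmr, the receptor chain that oncostatin M uses beside gp130, was at 61.4, 56.3, 66.2 and 62.6 TPM in the controls. The RhoA het libraries 5, 6, 7 and 8 were at 56.8, 95.8, 60.5 and 107 TPM, so replicates 6 and 8 lay above every control and replicates 5 and 7 within their range. The fitted difference was 0.29 in log2 (SE 0.24, interval -0.25 to 0.83, adjusted p 0.9998 in edgeR), 0.15 without RhoA het replicate 6 and 0.13 without replicate 8. In those same libraries, 6 and 8, mural cell markers, genes of pericytes and smooth muscle, summed to 1235 and 2233 TPM, against 644 to 913 TPM in the other RhoA het libraries and 507 to 1285 TPM in control, with 6 of 6 markers detected in each library. The mural sum of replicate 6 was thus below the highest control, while the mean log2 CPM of both mural markers (6.81 and 7.39, against 5.46 to 6.41 in the other 6 libraries) and fibro-adipogenic markers (5.65 and 5.34, against 3.89 to 5.09) was highest in replicates 6 and 8. The part of mural or fibro-adipogenic RNA in the Osmr values was not tested.

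Il6ra was at 2.78, 1.67, 0.984 and 1.33 TPM in control replicates 2, 5, 7 and 8. Levels in RhoA het replicates 5, 6, 7 and 8 were 1.83, 3.16, 1.54 and 1.96 TPM. Its highest values fell in the libraries with Y-linked reads, 1 in each group. The fitted difference was 0.20 in log2 (SE 0.42, interval -0.74 to 1.14, adjusted p 0.9998 in edgeR), 0.71 without control replicate 2 and -0.11 without RhoA het replicate 6. Il6st, the shared gp130 subunit, was the steadiest of the 9 genes in log2 CPM, at 165, 208, 163 and 184 TPM in control and 192, 203, 189.6 and 236 TPM in RhoA het. Its difference in log2 was 0.11 (SE 0.14, interval -0.21 to 0.43, adjusted p 0.9998 in edgeR), and the groups overlapped. Leaving out each library in turn gave 0.033 to 0.16.

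**Figure D2:**
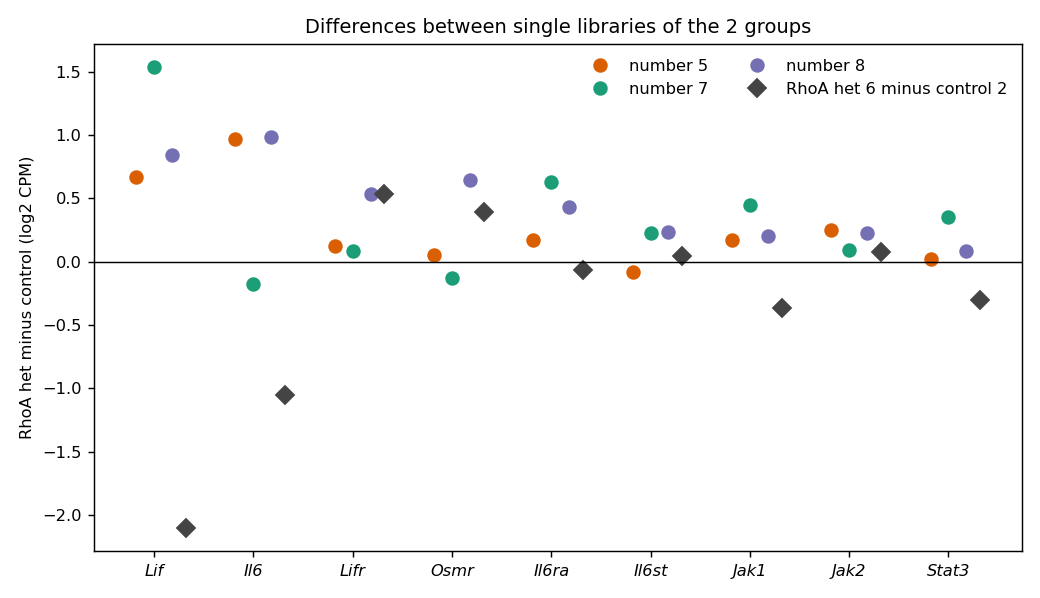
Difference in log2 CPM, RhoA het minus control, between single libraries for the 9 genes that passed the filter. Circles compare libraries of the same number (5, 7, 8), and diamonds set RhoA het replicate 6 against control replicate 2, which share no number. Lif is above 0 in its 3 circles and at -2.10 in its diamond, while the receptor and kinase genes lie within 0.65 of 0.

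Jak1, the kinase gene bound most widely across this receptor family, was at 326, 322, 219.7 and 255 TPM in control replicates 2, 5, 7 and 8. The RhoA het libraries 5, 6, 7 and 8 were at 353, 302, 298 and 319.6 TPM. Control replicates 7 and 8 were the lowest libraries, and the groups overlapped through control replicates 2 and 5. The fitted difference was 0.077 in log2 (SE 0.19, interval -0.35 to 0.50, adjusted p 0.9998 in edgeR). It was 0.27 without control replicate 2 and -0.053 without control replicate 7. Jak2 was at 17.7, 16.2, 15.2 and 14.6 TPM in control and 18.7, 22.1, 16.1 and 18.5 TPM in RhoA het, a log2 fold change of 0.16 (SE 0.18, interval -0.25 to 0.56, adjusted p 0.9998 in edgeR), which was 0.027 without RhoA het replicate 6 and was 0.32 without control replicate 2.

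Stat3, the transcription factor of the pathway, was at 924, 794, 816 and 778 TPM in control replicates 2, 5, 7 and 8. Levels in RhoA het replicates 5, 6, 7 and 8 were 784, 892, 1039 and 898 TPM. The means were 828 ± 66.0 and 903 ± 105 TPM (SD, n = 4 each), and the fitted difference was 0.025 in log2 (SE 0.19, interval -0.40 to 0.45, adjusted p 0.9998 in edgeR). Its sign turned in 5 of the 8 fits that each left out 1 library, all within 0.19 of 0. Neither end of the interval lies farther than 0.45 from 0.

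Across the family, edgeR's quasi-likelihood test called 0 of the 8 tested genes other than Lif at an adjusted p under 0.05, where 0% of all 15660 genes were called. At an unadjusted p under 0.05 the count was also 0 of 8, against 2.38% of all genes tested, and DESeq2 called 0 as well. With the replicate block 0 of 8 passed, against 0.0127% of all genes. At an unadjusted p under 0.05 the block gave 1 of the 8 (Il6, edgeR p 0.015), where 5.26% of all genes had such a p. Of the 8 fold changes 7 were above 0 (8 on log2(TPM + 1)), with a median of 0.13 on the log2 scale, against -0.00071 for all genes tested, of which 7809 of 15660 were above 0 (10472 on log2(TPM + 1), so most genes lay higher on that scale). This count was 8 of 8 without control replicate 2 (median 0.35) and 8 of 8 over the 3 pairs with the block (median 0.19). It was 4 of 8 without control replicate 7 (median 0.0082) and 5 of 8 without RhoA het replicate 6 (median 0.047). In 3 of 3 same-numbered pairs 5 of the 8 (Lifr, Il6ra, Jak1, Jak2 and Stat3) were higher in RhoA het in log2 CPM, where 13.6% of all genes were. In TPM it was 4 of the 8, Stat3 being lower for number 5, where 14.9% of all genes were higher. The 8 genes come from the same libraries and are not independent of each other.

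**Figure D3:**
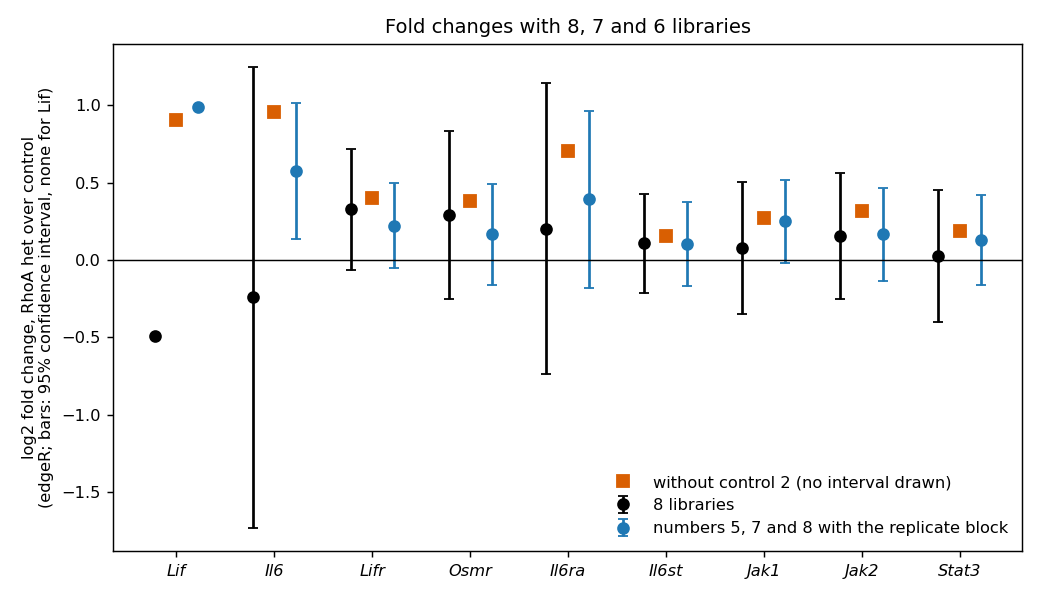
The edgeR log2 fold changes of 9 genes, RhoA het over control, over 8 libraries (black), without control replicate 2 (orange squares) and over numbers 5, 7 and 8 with the replicate block (blue). Bars are 95% confidence intervals, drawn for no orange square and not for Lif, which was picked for this difference. Of these 3 fits Lif and Il6 are below 0 only in that over 8 libraries, at -0.49 and -0.24.

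The genes most like Lif across the 8 libraries were sought by Pearson's r of log2 CPM among 13630 tested genes averaging at least 1 CPM. The 5 highest were Syap1 (r 0.98, Spearman's rho 0.83), Jak1 (0.97, 0.90), Cxcl13 (0.96, 0.83), Brf2 (0.96, 0.79) and Sphk1 (0.95, 0.83), all chosen for their r and so given without a p. Jak1 thus ranked second of 13630, and its r was 0.98 without control replicate 2 and 0.90 without control replicates 2 and 7, the libraries farthest from the median of Lif. For the other 4 genes r without both was 0.71 for Syap1, 0.60 for Cxcl13, 0.53 for Brf2 and 0.68 for Sphk1, so their likeness rested partly on those libraries. On log2(TPM + 1), an alternative chosen after the values were seen, Cxcl13 ranked 3 and Sphk1 9, but Jak1 fell to rank 105 (r 0.77), Brf2 to 117 and Syap1 to 142. On that TPM scale Spearman's rho of Jak1 was 0.83. Without control replicate 2, r on it was 0.94 for Jak1, 0.92 for Brf2, 0.91 for Sphk1, 0.87 for Syap1 and 0.83 for Cxcl13. In CPM all genes of a library share its TMM factor, which was lowest in control replicate 2. The part of that factor in these values was not tested.

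Cxcl13, a chemokine that attracts B cells, had the widest range of these genes. It was at 142 TPM in control replicate 2, at 0.109 TPM (1 fragment) to 4.87 TPM in the other controls and at 2.92 to 8.80 TPM in RhoA het. Sphk1, the gene of sphingosine kinase, was at 51.8 TPM in control replicate 2, at 18.5 to 31.5 TPM in the other controls and at 26.3 to 43.0 TPM in RhoA het. Both were highest in the library where Lif was highest and lowest in control replicate 7, where Lif was lowest. Among the listed family genes, Il6ra (r 0.83) and Il6 (0.79) followed Jak1 in likeness to Lif. For Il6, Spearman's rho was 0.74, and r was 0.48 without control replicate 2 and 0.60 without control replicates 2 and 7.

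The rest of the pathway was examined through 63 other genes in 6 lists, of which 54 passed the filter. Of these edgeR called 0 at an adjusted p under 0.05 with or without the replicate block, and DESeq2 called 0. At an unadjusted p under 0.05 there were 2, both higher in RhoA het (Jak3 and Icam1), where 2.38% of all genes tested had such a p. With the replicate block 3 of 53 had such a p, all higher in RhoA het, where 5.26% of all genes had one. They were Icam1, Il11 (log2 fold change 0.68, edgeR p 0.027) and Stat2 (0.35, edgeR p 0.022). Over 8 libraries Il11 was at 0.10 and Stat2 at 0.24. The median log2 fold change over 8 libraries was 0.021, with 33 of 54 above 0, beside 7809 of 15660 genes in all. On log2(TPM + 1) it was 0.11 (45 of 54), where 10472 of all 15660 were above 0 and their median was 0.068. It was 0.12 (45 of 54) without control replicate 2 and below 0 without control replicate 5 (-0.022, 22 of 54), control replicate 7 (-0.043, 23 of 54) or RhoA het replicate 6 (-0.035, 24 of 54).

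Among the other ligands, 4 of 9 passed the filter, 2 above 0 and 2 below over 8 libraries. All 4 were above 0 with the replicate block (median 0.30) and without control replicate 2 (median 0.099). Of the 4, 0 were above 0 without control replicate 5, control replicate 7 or RhoA het replicate 8. Clcf1, a ligand of the CNTF receptor, was the most abundant cytokine gene of the family, at 432 ± 95.1 TPM in control and 415 ± 62.1 TPM in RhoA het (SD, n = 4 each). It exceeded Il6 in 8 of 8 libraries by 1.02-fold to 4.39-fold, and its difference in log2 was -0.19 (SE 0.24, adjusted p 0.9998 in edgeR). That difference was 0.059 without control replicate 2 and 0.13 with the replicate block. Cntf, Ctf2, Il27, Ebi3 and Il31 did not pass the filter. Among the other receptors 3 of 4 passed it, with Il11ra1, the interleukin-11 receptor chain, highest at 102 ± 10.7 and 104 ± 21.3 TPM. Cntfr, the receptor chain for CNTF, was at 4.02 ± 1.69 and 4.73 ± 2.06 TPM, and Il27ra at 0.499 ± 0.319 and 0.431 ± 0.289 TPM.

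Of the other 8 kinase and STAT genes 7 passed the filter, with a median of 0.044. All 7 fold changes were above 0 over 8 libraries, where 7809 of 15660 genes were, but 4 of 7 with the replicate block, without control replicate 5 or without RhoA het replicate 6. The gene with the highest mean level among them, Stat6, averaged 42.0 ± 7.04 TPM in control and 45.2 ± 14.5 TPM in RhoA het. Jak3, a kinase of lymphoid and myeloid cells, was at 0.0510, 0.124, 0.537 and 0.456 TPM in control replicates 2, 5, 7 and 8. The RhoA het libraries 5, 6, 7 and 8 were at 0.763, 2.98, 0.362 and 0.638 TPM, with replicate 6, where 10 of 12 immune markers were highest, far above the rest. Its log2 fold change of 1.99 (SE 0.81, unadjusted p 0.0355, adjusted p 0.9998 in edgeR) was 0.89 without that library (unadjusted p 0.213 in edgeR), 1.68 without control replicate 2 (unadjusted p 0.0768) and 0.62 with the replicate block (unadjusted p 0.314), and the part of immune RNA in it was not tested.

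Over 8 libraries none of the feedback inhibitors or adaptors had an unadjusted p under 0.05 in edgeR, where 2.38% of all genes tested had. Without control replicate 7, 1 adaptor had such a p and was lower in RhoA het, beside 120 of 15660 genes in all. Of 15 inhibitor genes all 15 passed the filter, with 8 fold changes above 0 and a median of 0.0062. Socs3, the feedback inhibitor induced by STAT3, was the most abundant, at 787, 413, 770 and 637 TPM in control replicates 2, 5, 7 and 8. Levels in RhoA het replicates 5, 6, 7 and 8 were 368, 898, 596 and 843 TPM. Its lowest values fell in both libraries numbered 5, which also had the lowest summed dissociation response (30450 TPM in control and 27772 TPM in RhoA het), and the groups overlapped. Control replicate 7, where that sum was highest (57374 TPM), was not the highest library for Socs3. The part of the dissociation response in the Socs3 values was not tested. The log2 fold change of Socs3 was -0.048 (SE 0.35, adjusted p 0.9998 in edgeR), 0.16 without control replicate 2 and -0.26 without RhoA het replicate 6. Socs2, with the smallest p of the inhibitors, had one of 0.37 (SE 0.27, unadjusted p 0.205 in edgeR). The 5 adaptor genes had a median of -0.045, with Shc1 the highest, at 79.5 ± 2.29 and 89.8 ± 11.8 TPM. Grb2, which had their smallest p, had a log2 fold change of -0.12 (SE 0.19, unadjusted p 0.526 in edgeR).

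Of 22 listed STAT3 target genes 20 passed the filter, 13 of them above 0, with a median of 0.035. The count was 17 of 20 (median 0.13) with the replicate block and 18 of 20 (median 0.14) without control replicate 2. It was 9 of 20 (median -0.050) without control replicate 7. Myc was the highest, at 2619 ± 397 TPM in control and 2546 ± 309 TPM in RhoA het. Common readouts of STAT3 activity did not pass the test, with log2 fold changes of -0.14 (SE 0.21) for Myc, -0.013 (SE 0.21) for Bcl3, -0.18 (SE 0.17) for Pim1 and -0.018 (SE 0.45) for Cebpd, with adjusted p of 0.9998 in edgeR. Each of these 4 was above 0 without control replicate 2, at 0.064, 0.11, 0.010 and 0.44. Icam1, an adhesion molecule gene, was at 56.7, 56.9, 57.5 and 55.5 TPM in the controls and at 71.4, 126, 59.5 and 106 TPM in RhoA het replicates 5, 6, 7 and 8. All RhoA het libraries were above all controls in TPM, but in CPM control replicate 2 (95.8 CPM) was above RhoA het replicates 5 (89.5 CPM) and 7. The log2 fold change of Icam1 was 0.60 (SE 0.25, unadjusted p 0.0385, adjusted p 0.9998 in edgeR), and without RhoA het replicate 6 it was 0.35 (unadjusted p 0.13 in edgeR). Without control replicate 2 it was 0.70 (unadjusted p 0.0321 in edgeR), and with the replicate block, which leaves out both libraries, 0.39 (unadjusted p 0.0211, adjusted p 0.835 in edgeR).

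**Figure D4:**
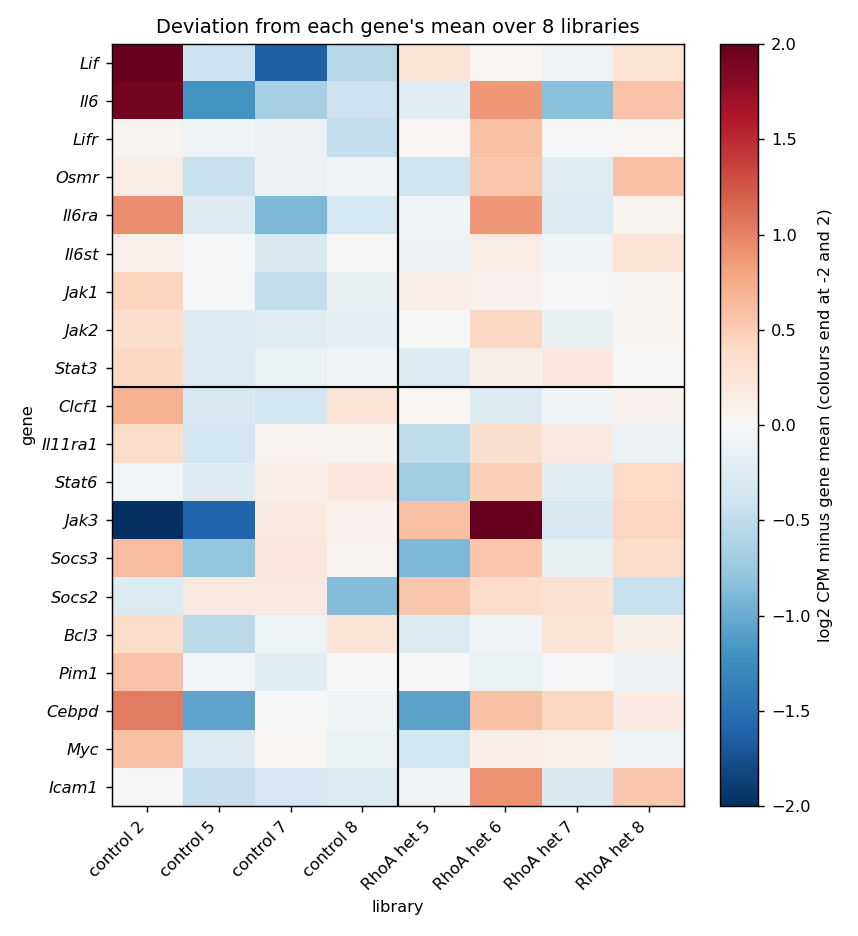
Log2 CPM of 20 genes in the 8 libraries minus the mean of each gene over the 8 (colour; red above and blue below, ending at -2 and 2). Rows above the line are the 9 family genes that passed the filter, and rows below it are other pathway genes. Control replicate 2 is above the mean for Lif, Il6, Clcf1, Socs3 and Cebpd, and Jak3 is highest in RhoA het replicate 6.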

How the data were processed

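RNA of 8 libraries of sorted muscle stem cells was sequenced, and the groups and numbers were taken from the titles. The authors deposited raw counts per gene, made per the file headers with featureCounts 1.6.4 (fragments over exons, GENCODE mouse release 34, mm39), from STAR alignments, with no strand or multi-mapping option set. The authors' TPM values were recomputed from these counts and the deposited gene lengths and matched within 5.09e-11 TPM. The command named 10 alignment files, of which 8 are analysed here. Symbols came from GENCODE release 21, which named 51884 of 57180 identifiers.

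Counts were filtered with filterByExpr (15660 genes kept), scaled by TMM and tested with edgeR's quasi-likelihood test (edgeR 4.0.16, R 4.3.3) over 8 libraries without covariates, adjusted over all genes (Benjamini-Hochberg, threshold 0.05). Log2 CPM used a prior count of 2. Standard errors came from the F statistic. Exact permutation tests were two-sided. The fits were tested on simulated data. There the fit over 8 libraries recovered 17% of genes changed 2-fold and 90% of those changed 4-fold. The replicate block over 6 libraries recovered 62% and 93%. A gene not called can therefore still differ 2-fold. No 2 libraries of a group were near-copies (chi-square of their counts over its degrees of freedom at least 43).

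Numbers 5, 7 and 8 occur in both groups. Deviations from the group means correlated at 0.544, 0.231 and 0.488 between same-numbered libraries, so these numbers were used as pairs in a replicate block; the labels do not say what they stand for. Alternatives were DESeq2 1.42.0 (its size factors and its test), no filter, limma 3.58.1 on log2(TPM + 1) and log2(TPM + 0.1), a term for libraries with Y-linked reads, the block, its 6 libraries without it, and leaving out each library. The genes and lists were chosen with earlier results of these data known. Genes named were the 10 family genes and the 5 genes most like Lif. In each pathway list the gene with the highest mean TPM and that with the smallest p were named, as were Socs3, Bcl3, Pim1, Cebpd and Myc. Cntfr, Csf3r, Il11 and Stat2 were added after their values were seen. Some pathway genes are not reported here.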

Additional observations from a re-analysis of the deposited data

Results flagged for a closer look

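Libraries far from the others of their group were sought in log2 CPM for the 10 genes in both groups (20 tests, of which chance gives about 1 in 20) by the gap to the nearest library divided by the group's range, against a limit of 0.829 for 4 libraries, and 4 results passed it, 2 of them by construction. Lifr in RhoA het replicate 6, at 147 CPM, had a ratio of 0.884. Jak2 in control replicate 2, at 34.4 CPM, had a ratio of 0.867. Osm had a ratio of 1 in control replicate 7 and of 1 in RhoA het replicate 6, where 2 and 8 fragments stood against 0 in the other libraries of the group. With 3 libraries at 0 the ratio is 1 for any count above 0, so these 2 ratios carry no information. Lif and Il6 in control replicate 2, with ratios of 0.675 and 0.752, did not pass the limit.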

How the results depend on the processing

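In each of the 16 alternative fits 0 of the 8 tested family genes other than Lif and 0 of the pathway genes passed an adjusted p of 0.05, and the count over all genes was 0 except with the replicate block, which gave 2. Il6 turned from -0.24 to 0.58 with the replicate block, 0.65 in its 6 libraries without the block, 0.26 on log2(TPM + 1), 0.27 on log2(TPM + 0.1) and 0.26 with a term for Y-linked reads; control replicate 2 is absent from the first 2, and the cause was not tested for the others. Leaving out each library gave -0.56 to 0.96 for Il6, -0.11 to 0.71 for Il6ra, -0.053 to 0.27 for Jak1 and -0.071 to 0.19 for Stat3, while Lifr, Osmr, Il6st and Jak2 stayed above 0 in all 16 fits. Lif ranged from -0.83 without control replicate 7 to 0.99 with the replicate block. With 4 libraries a group, the intervals of Il6 and Il6ra reached past 1 on the log2 scale, so a 2-fold rise of either lay within them. The interval of Il6 also reached down to -1.73, so a 2-fold fall of Il6 lay within it too.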
